A study of Mus musculus with 2 samples.

Results

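Promoter peaks were examined at 10 genes that are known for tissues other than brain: Gdf9 and Dazl of the germline, Mylpf of skeletal muscle, Epor of red cell precursors, Lck of T cells, Hoxa7 and Hoxc5 of embryonic patterning, Apoh of liver, and the olfactory receptor genes Olfr317 and Olfr1392. They were chosen from measured values, because in hippocampus each had a peak within 500 bp of a start of its own annotated transcripts in both libraries. That they were open is therefore the choice itself and not a result. They were 10 of 21938 protein-coding genes, of which 12982 (59.2%) met the same criterion. The assay was DNase-seq, in which the enzyme DNase I cuts accessible DNA in nuclei, clusters of cuts are called as peaks, and short protected stretches are called as footprints. There was 1 group of 2 libraries from female B6CASTF1/J mice, an F1 hybrid strain, at an age of 8 to 10 months, with no treated or control arm. The labelled tissue was layer of hippocampus, and each library held a pool of 2 biosamples. The labels number the libraries as biological replicates but give both the same donor, so the spread between them may be partly technical. The question was whether each open site was the gene's own promoter or that of a neighbour.

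A promoter is the DNA around a transcription start, and promoters rich in CpG often lie open in many tissues, including ones where the gene is silent. Most genes have several annotated starts, some of which belong to short or non-coding transcripts, and many genes lie head to head with a neighbour so that a shared promoter serves both. A peak at a tissue-restricted gene can thus lie at its usual start, at a lesser start, or between it and another gene.

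The sequences below are shown because they carry these positions. The Gdf9 stretch, chr11:53430832-53431022 on the plus strand, is all of the DNA between the starts of Gdf9 and of Uqcrq, which face away from each other. The Mylpf stretch, chr7:127208952-127209200 on the plus strand, lies in the peak just inside the first intron. The Epor stretch, chr9:21962565-21962780 on the minus strand, is the DNA just upstream of an internal start. The Lck stretch, chr4:129556521-129556740 on the minus strand, is a whole peak that begins in a coding exon. The Hoxa7 stretch, chr6:52221855-52221940 on the minus strand, is the DNA upstream of the outermost start. The Olfr317 stretch, chr11:58733461-58733680 on the minus strand, is a whole peak with few CpGs. All are mm10, read 5′ to 3′ along the gene's strand, with capitals for bases that lay in a footprint in both libraries.
Gdf9: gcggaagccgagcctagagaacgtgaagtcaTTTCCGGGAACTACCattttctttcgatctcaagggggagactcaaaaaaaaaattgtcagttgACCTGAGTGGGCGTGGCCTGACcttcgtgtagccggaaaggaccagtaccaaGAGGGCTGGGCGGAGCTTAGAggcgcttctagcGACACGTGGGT
Mylpf: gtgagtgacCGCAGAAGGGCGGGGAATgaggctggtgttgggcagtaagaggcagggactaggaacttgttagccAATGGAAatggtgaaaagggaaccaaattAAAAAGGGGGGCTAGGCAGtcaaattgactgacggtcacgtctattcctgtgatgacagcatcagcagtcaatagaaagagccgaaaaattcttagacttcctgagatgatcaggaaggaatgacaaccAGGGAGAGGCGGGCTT
Epor: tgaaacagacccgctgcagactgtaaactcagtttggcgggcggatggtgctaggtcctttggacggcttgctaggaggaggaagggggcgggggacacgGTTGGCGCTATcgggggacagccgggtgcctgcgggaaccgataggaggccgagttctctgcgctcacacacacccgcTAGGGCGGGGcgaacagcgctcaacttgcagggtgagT
Lck: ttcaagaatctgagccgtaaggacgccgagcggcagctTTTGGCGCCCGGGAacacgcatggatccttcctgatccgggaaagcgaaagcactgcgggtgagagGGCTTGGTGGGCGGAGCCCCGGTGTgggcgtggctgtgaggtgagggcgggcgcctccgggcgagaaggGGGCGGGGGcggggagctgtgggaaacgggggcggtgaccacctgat
Hoxa7: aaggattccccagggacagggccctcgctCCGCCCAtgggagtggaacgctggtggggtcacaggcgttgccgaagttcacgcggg
Olfr317: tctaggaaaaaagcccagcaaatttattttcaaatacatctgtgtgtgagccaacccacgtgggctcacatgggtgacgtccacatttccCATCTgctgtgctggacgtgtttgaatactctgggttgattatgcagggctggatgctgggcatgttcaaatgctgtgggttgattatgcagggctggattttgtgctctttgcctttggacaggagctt

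Replicate 1 had 98902 peaks and replicate 2 had 130199. The deposited signal is the authors' height of each peak, and it moved in steps of 0.00606 (replicate 1) and 0.00795 (replicate 2). What a step stands for was not given in the sources used here. Of 17 markers of hippocampal neurons and glia, 15 were open by the same criterion, the exceptions being Fibcd1, a CA1 marker, and Aqp4, an astrocyte marker. The tissue was measured in bulk, so a site open in few cells and a site weakly open in many cannot be told apart.

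Among the 10 genes, Gdf9 and Mylpf had strong peaks and the others lay below the median of open genes. Gdf9, an oocyte growth factor, had signals of 10.6 (replicate 1) and 7.84 (replicate 2) (9.21 ± 1.94, mean ± SD, n = 2), which placed it above 98.0% of open genes. Mylpf, a myosin light chain of fast skeletal muscle, had 6.99 and 6.16 (6.57 ± 0.58), above 91.9% of open genes. Epor, the erythropoietin receptor, had 1.37 and 1.53 (1.45 ± 0.11), above 31.3%. Hoxa7, a homeobox gene of the embryonic trunk, had 1.15 and 1.34 (1.25 ± 0.14), and Lck, the kinase that starts T cell receptor signalling, had 1.16 and 1.33 (1.24 ± 0.12). Dazl, an RNA-binding protein of germ cells, had 1.00 and 1.03 (1.01 ± 0.02). The signals of Olfr317 were 0.842 and 0.986 (0.914 ± 0.102), and those of Olfr1392 were 0.751 and 0.843 (0.797 ± 0.065). Apoh, a plasma glycoprotein made by liver, had 0.618 and 0.636 (0.627 ± 0.013). Hoxc5 was lowest, with 0.291 and 0.525 (0.408 ± 0.165), above 2.60% of open genes.

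In that order, the values of Hoxa7 and Lck overlapped, as did those of Olfr317 and Olfr1392. The other neighbours in the order did not overlap, but the gap was larger than the difference between the libraries within both genes only between Mylpf and Epor and between Olfr1392 and Apoh. All genes except Gdf9 and Mylpf were higher in replicate 2. The median signal of the 10 genes was 1.08 in replicate 1 and 1.18 in replicate 2, against 2.12 and 2.48 over all 12982 open genes. The main peaks of the libraries overlapped in 10 of 10 genes, a count given without the share over all open genes. At Apoh their midpoints still lay apart, 53.5 bp (replicate 1) and 393.5 bp (replicate 2) upstream of the same start. At Hoxc5 the peaks were 29 and 220 bp wide.

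**Figure D1:**
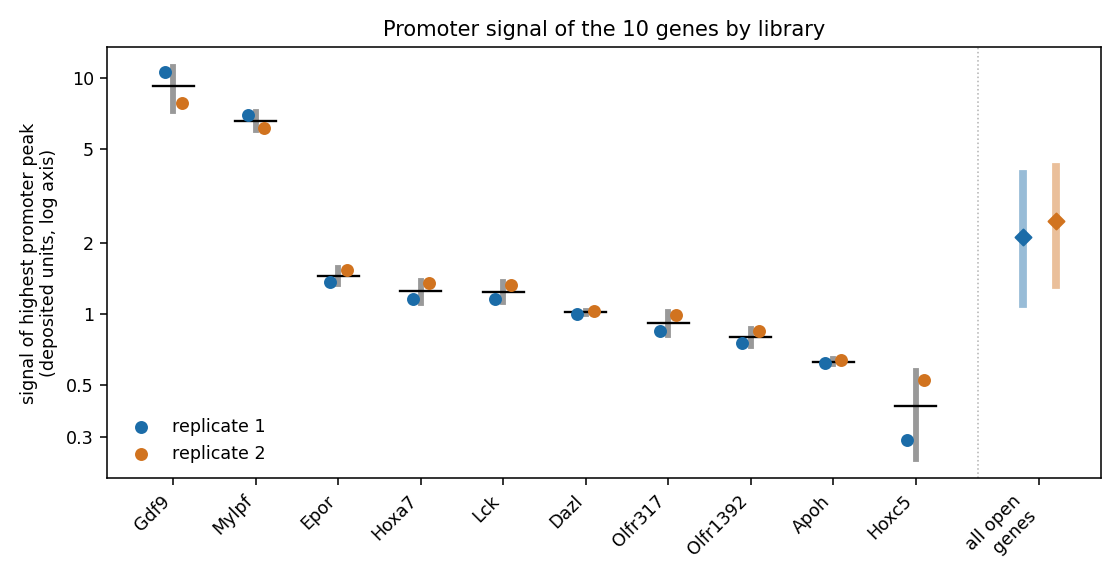
Signal of the highest promoter peak of each gene (log axis, deposited units). Points are the 2 libraries, black lines and grey bars the mean and SD, and the diamonds and coloured bars at the right the median and quartiles of all open genes. Gdf9 and Mylpf lie above the upper quartile of open genes, and the other 8 genes lie below their median.

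By position, 10 of 10 main peaks (the highest in the window) had their midpoint nearer to a start of the gene itself than to any start of another gene, in both libraries, against 84.9% of open genes. The count nearer to another gene was 0 of 10, against 10.8% of open genes (1396 genes). Another gene still began within 500 bp of the midpoint in both libraries in 1 of 10 (Gdf9), against 27.1% of open genes, and in replicate 1 also at Apoh. The rule asked only for a peak near an own start, so these counts are partly fixed by it. The median distances to an own start were 85.8 bp (replicate 1) and 138 bp (replicate 2), against 64.5 and 60.5 bp over all open genes. The choice of own start mattered more. A coding transcript of the annotation's basic set, the subset that it tags as basic, began within 500 bp of the main peak in 5 of 10 genes. The share was 92.2% over all open genes. These 5 were Mylpf, Dazl, Hoxc5, Olfr317 and Olfr1392. A curated RefSeq transcript began there in 4 of 10, against 90.2% of the 12514 open genes that have one, Dazl being the gene that dropped out. The outer 5′ end of the gene record lay within 500 bp in 4 of 10 (Gdf9, Mylpf, Hoxa7 and Apoh), against 83.8% of open genes. The 10 genes had a median of 4.5 annotated starts each (2 to 7), against 5 (1 to 58) over all open genes.

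**Figure D2:**
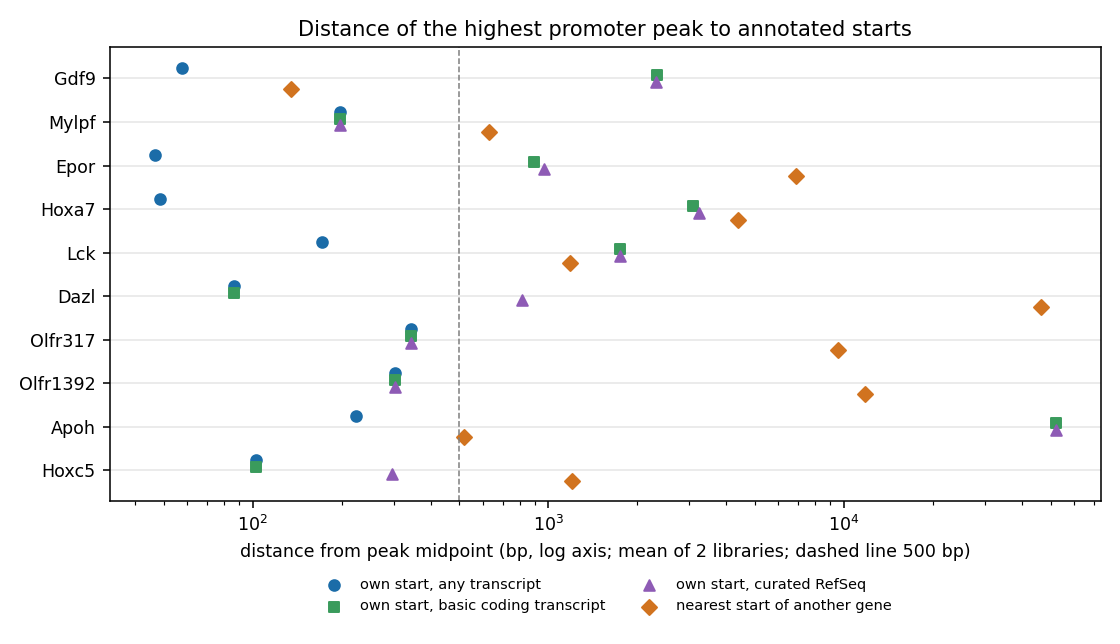
Distance from the midpoint of the main peak to annotated starts (log axis, bp, mean of the 2 libraries), for the nearest own start of any transcript, of a basic coding transcript and of a curated RefSeq transcript, and for the nearest start of another gene. The dashed line is 500 bp. Gdf9, Epor, Hoxa7, Lck and Apoh have their basic coding start to the right of it.

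At Gdf9 and Mylpf the main peak was also the highest promoter peak of a neighbour transcribed the opposite way. The Gdf9 peak, chr11:53430881-53431100 in replicate 1 and chr11:53430801-53431080 in replicate 2, had its midpoint 32.5 and 82.5 bp from the 5′ end of the gene, where a non-coding transcript begins. The nearest start of Uqcrq, which encodes a subunit of respiratory complex III, lay 192 bp from it on the other strand, at 159.5 and 109.5 bp from the midpoint. The same peak was the highest promoter peak of Uqcrq in both libraries. It covered the Gdf9 5′ end in both libraries and the Uqcrq start in replicate 2 only. The coding transcript, Gdf9-201, began 2199 and 2219 bp beyond the nearest peak, and 0 of the 201 bases within 100 bp of its start had a deposited false discovery rate below 0.05. Around the Gdf9 5′ end and around the Uqcrq start, 201 of 201 bases were below it in both libraries.

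There were 5 footprints in replicate 1 and 6 in replicate 2, covering 43.2% and 40.0% of its bases, against medians of 41.2% and 36.7% among open genes of like signal (within 20%). Of these, 4 and 5 overlapped a footprint of the other library. For such sharing, here and at the other genes below, no value over open genes is given, so the counts are description only. In the printed stretch, the capitals hold GGGCGG, the GC box that Sp family factors bind, 34.5 bp from the Gdf9 5′ end, and CACGTG, the E-box that USF factors bind, 6.5 bp from it. Another GC box downstream of the start, 71.5 bp from it, also lay in a footprint of both libraries.

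The Mylpf peak, chr7:127208841-127209360 in replicate 1 and chr7:127208821-127209360 in replicate 2, was 520 and 540 bp wide, against medians of 260 and 240 bp over all open genes. It covered the start of Mylpf-206, a basic coding transcript whose start is also a curated RefSeq start. The midpoint of the peak was 201.5 and 191.5 bp downstream of that start. The start of Tbc1d10b, which encodes a Rab GTPase-activating protein, lay 431 bp from that start on the other strand and 632.5 and 622.5 bp from the midpoint. The peak was the highest promoter peak of Tbc1d10b too, but it did not reach that start in either library, and only 33 and 119 of the 201 bases around it were below a rate of 0.05. Weaker peaks lay at or near starts of Tbc1d10b, with a signal of 0.757 in replicate 1 and with signals of 0.573 and 0.620 in replicate 2. Mylpf also has a downstream start, that of Mylpf-201, which is likewise a basic coding and a curated RefSeq start. It lay 2248 and 2042 bp from the nearest peak, and 0 of the 201 bases around it were below a rate of 0.05 in both libraries. The footprints numbered 8 and 5, with 5 shared in each library, and covered 30.2% and 16.3% of the bases, against medians of 38.2% and 34.2% among open genes of like signal. A GC box and a CCAAT box overlapped footprints of both libraries.

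Apoh also lay close to a gene on the other strand, and here the neighbour had a stronger peak of its own. The main peak, chr11:108343101-108343500 in replicate 1 and chr11:108342761-108343160 in replicate 2, was 53.5 and 393.5 bp from the start of Apoh-202, a coding transcript outside the basic set. It lay 347.5 and 687.5 bp from the nearest start of Prkca, the gene of protein kinase C alpha, whose start was 294 bp from that of Apoh-202. These starts face each other, so that the transcripts overlap. In replicate 1 the Apoh peak overlapped a coding exon of Prkca, and in replicate 2 it lay in a Prkca intron. In replicate 2 the peak over the Apoh-202 start was a lower one, with a signal of 0.461. The highest promoter peak of Prkca was a separate one, with signals of 2.11 and 2.64, against 0.618 and 0.636 for that of Apoh. It began 607 and 507 bp from the Apoh-202 start, so in replicate 2 it lay only just outside the 500 bp window. The basic coding start of Apoh, that of Apoh-201, lay 15088 and 15008 bp from the nearest peak. No footprint lay in the Apoh peak in either library, which held for 1 of the 10 genes against 0.763% of open genes (99 genes). Among open genes of like signal, 6.30% had no footprint in replicate 1 and 11.6% in replicate 2.

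**Figure D3:**
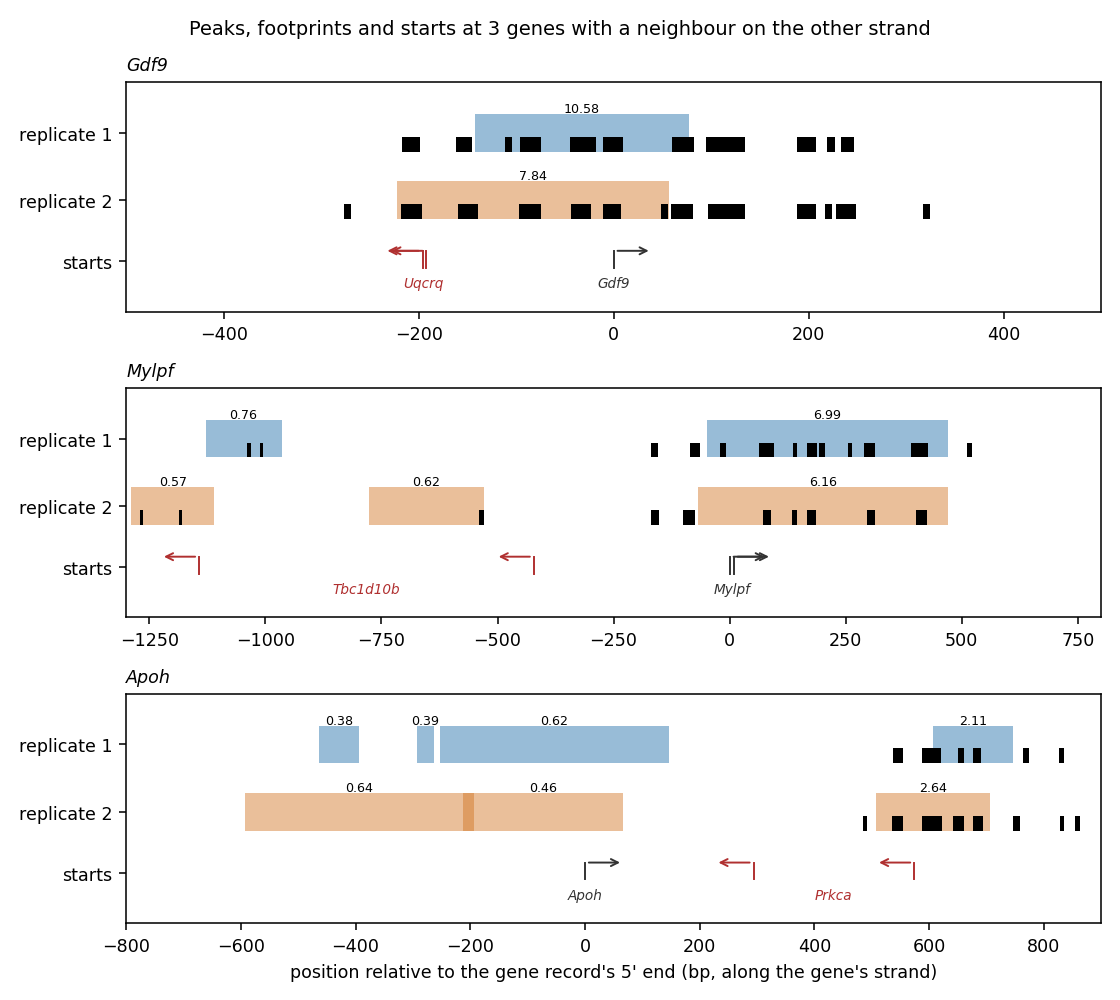
Peaks (bars, with their signal), footprints (black) and transcript starts (arrows, the neighbour in red) around Gdf9, Mylpf and Apoh, in bp from the 5′ end of the gene record along its strand. The peak at Gdf9 and that at Mylpf are the highest promoter peaks of both genes of their pair, whereas Prkca has a peak of its own, with signals of 2.11 and 2.64.

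In Epor, Lck and Dazl the main peak lay inside the gene at or near an internal start, away from the outer 5′ end. Each was several kilobases from any other coding gene. The Epor peak, chr9:21962461-21962720 in replicate 1 and chr9:21962481-21962780 in replicate 2, had its midpoint 26.5 and 66.5 bp from the start of Epor-202, a coding transcript outside the basic set that begins within an intron of Epor-201. It was 915.5 and 875.5 bp downstream of the 5′ end, the start of Epor-201, where 0 of 201 bases were below a rate of 0.05 in both libraries. The nearest other start, that of Swsap1, was 6835.5 and 6875.5 bp away and had its own peak with signals of 8.04 and 8.02, against 1.37 and 1.53 for Epor. The Epor peak held 6 and 7 footprints, 4 of them shared in each library. They covered 26.9% and 20.3% of its bases, against medians of 18.5% and 16.6% among open genes of like signal. In the printed stretch, a GC box in capitals lay 33.5 bp upstream of the start.

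The Lck peak, chr4:129556521-129556740 in both libraries, had its midpoint 171.5 bp from the start of a retained-intron transcript. It overlapped a coding exon of the full-length transcripts, but did not cover that start in either library. In replicate 1 that start lay in a weaker peak, with a signal of 0.660. The main peak was 17010.5 bp from the outer 5′ end, which had no base below a rate of 0.05 within 100 bp. The basic coding start of Lck-201 lay in a weak peak in replicate 1 (0.436) and 833 bp from any peak in replicate 2. The nearest start of another gene was that of Mir8119, a microRNA gene on the same strand inside Lck, at 1180.5 bp. The window around all Lck starts held 6 peaks in replicate 1 and 4 in replicate 2. The main peak held 4 and 3 footprints, 3 of them shared in each library, covering 34.5% and 25% of its bases. Median cover among open genes of like signal was 16.3% and 15%. Of the 5 GC boxes in its motif window, 3 lay in footprints of both libraries.

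The Dazl peak, chr17:50292701-50292940 in replicate 1 and chr17:50292621-50292960 in replicate 2, was 71.5 and 101.5 bp from the start of Dazl-204, a basic coding transcript. The outer 5′ end was 815.5 and 845.5 bp upstream, and the curated RefSeq start was 799.5 and 829.5 bp away. A weaker peak lay toward the 5′ end, with signals of 0.442 in replicate 1, where it covered that end, and 0.286 in replicate 2, where it lay 276 bp from it. The main peak held 4 footprints in each library, of which 0 overlapped between the libraries. They covered 14.2% and 10% of its bases, against medians of 14.25% and 11.7% among open genes of like signal. The nearest other start, that of the non-coding AC060761.1, was 46431.5 and 46461.5 bp away.

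**Figure D4:**
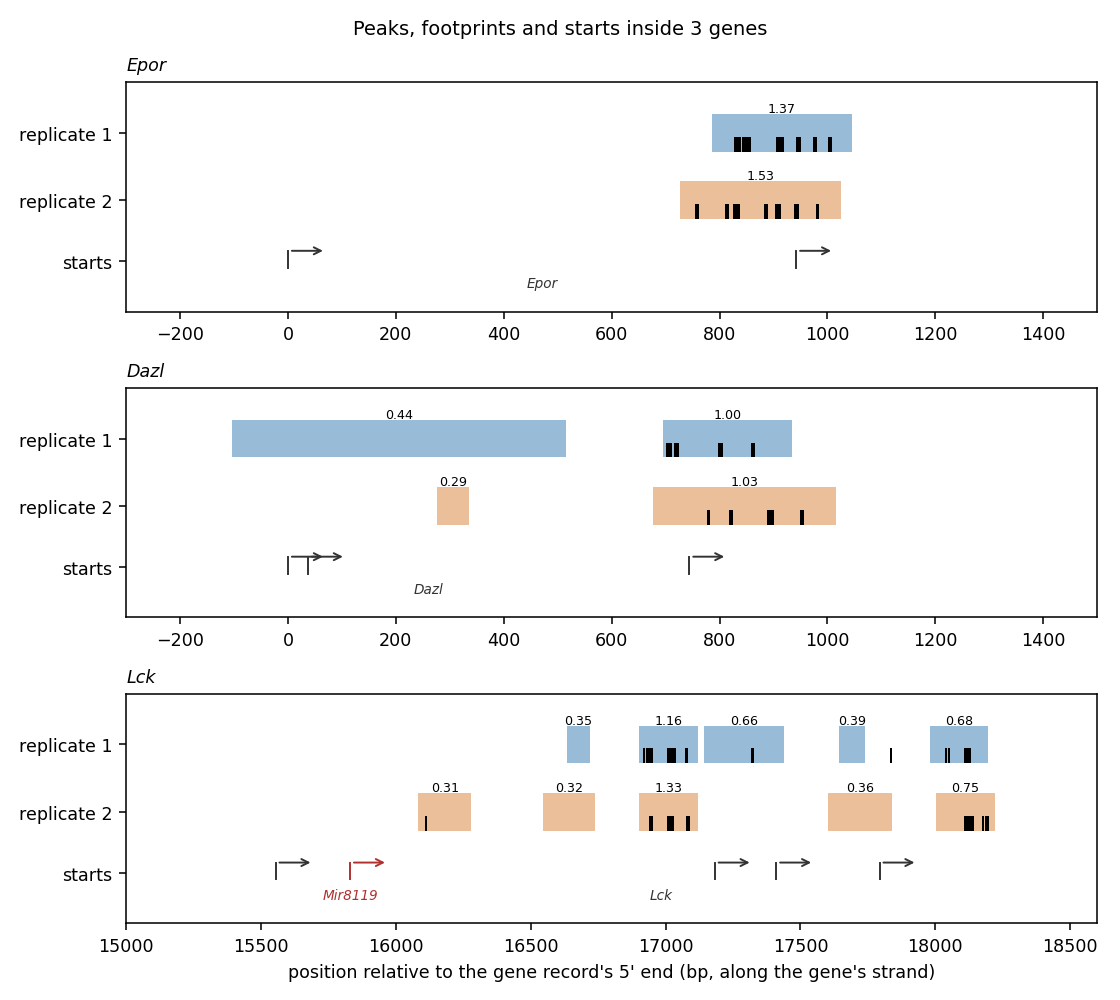
Peaks (bars, with their signal), footprints (black) and transcript starts (arrows) inside Epor, Dazl and Lck, in bp from the 5′ end of the gene record along its strand. The highest peak of each gene covers an internal start in Epor and Dazl and lies near one in Lck. It is 915.5 and 875.5 bp from the 5′ end in Epor, 815.5 and 845.5 bp in Dazl and 17010.5 bp in Lck.

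The Hox genes, which encode homeodomain factors that set position along the body axis, lie in clusters that are silenced in most of the adult forebrain. Hoxa7 had its peak, chr6:52221681-52221920 in replicate 1 and chr6:52221681-52221940 in replicate 2, at the outer 5′ end, 53.5 and 43.5 bp from the start of Hoxa7-204. That transcript is coding but outside the basic set, and the nearest basic coding start lay 3089.5 and 3099.5 bp downstream. The next gene, Hoxa9, began 4388.5 and 4378.5 bp away on the same strand. The peak held 3 and 5 footprints, 3 of them shared in each library. A GC box, in capitals on the other strand of the printed stretch, lay in such a shared footprint. Footprints covered 20% and 21.5% of the peak, against medians of 16.3% and 15% among open genes of like signal. Hoxc5 had the weakest peak of the 10 genes, 29 bp wide in replicate 1 (chr15:103013701-103013729) and 220 bp wide in replicate 2 (chr15:103013601-103013820). Its midpoint was 100 and 104.5 bp upstream of the start of Hoxc5-201, the basic coding transcript, and 46272 and 46267.5 bp from the 5′ end. The nearest other start was that of the microRNA gene Mir615, 1195 and 1199.5 bp away. The Hoxc5 peak had 0 footprints in replicate 1 and 1 in replicate 2, and in replicate 1 it was absent from the authors' smaller peak list. Open genes of like signal had a median of 1 footprint in each library, and 37.3% and 22.2% of them had none. Of 39 Hox genes, Hoxa7 and Hoxc5 were the 2 with a promoter peak in both libraries.

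The olfactory receptor genes encode odorant receptors of the nose, of which a sensory neuron expresses a single one. Both genes have several basic coding starts, and in each the peak lay between the outer ones and the innermost, without touching any. The Olfr317 peak, chr11:58733461-58733680 in replicate 1 and chr11:58733461-58733660 in replicate 2, was 347.5 and 337.5 bp upstream of the innermost start, that of Olfr317-201, which is also the curated RefSeq start, and 0 of 201 bases around that start were below a rate of 0.05. It lay in introns of the other transcripts, downstream of the 5′ end of the record by 5641.5 and 5651.5 bp, and Olfr318 began 9556.5 and 9546.5 bp away. The peak held 3 and 4 footprints, 1 of them shared in each library. They covered 11.8% and 17.5% of its bases, against medians of 12.5% and 11.2% among open genes of like signal. The Olfr1392 peak, chr11:49292881-49293120 in replicate 1 and chr11:49292861-49293120 in replicate 2, was 296.5 and 306.5 bp upstream of the innermost start, that of Olfr1392-201. It was 7718.5 and 7708.5 bp downstream of the 5′ end of the record, where other basic coding transcripts begin, and overlapped untranslated exon sequence of such transcripts. Around the innermost start, 0 and 29 of 201 bases were below a rate of 0.05. Olfr10 began 11740.5 and 11750.5 bp away, and the peak held 5 and 4 footprints, 3 of them shared in each library. These footprints covered 27.1% and 18.5% of its bases, against medians of 11.4% and 10% among open genes of like signal.

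Olfactory receptor genes arose by duplication, and near-identical copies can share reads. The 300 bp around the Olfr317 peak had a copy elsewhere in the genome, 94.3% identical over 300 bp, at chr11:58665015-58665313 near Olfr322, where no peak was listed in either library. The window of Olfr1392 had 2 copies, the better one 86.0% identical over 243 bp at chr11:49326828-49327067 near Olfr1391, where each library listed a peak. The other 8 genes had no copy of at least 100 bp with 80% identity. How the authors placed reads with several matches was not given in the sources used here, and its part in these 2 peaks was not tested.

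In base composition these 2 windows stood apart from the rest. The observed to expected CpG ratio of the 300 bp window was 0.202 at Olfr317 and 0.136 at Olfr1392, against a median of 0.794 over 11780 windows at the other open genes, placing them above 3.12% and 1.61% of these. Mylpf had 0.385, and the remaining 7 genes lay between 0.631 (Hoxc5) and 0.898 (Lck). Matches to 9 consensus motifs were searched on both strands in the same windows, and in the 10 genes no matches of different motifs overlapped. GGGCGG (GC box) was in 6 of 10, against 66.1% of the other windows: Gdf9, Mylpf, Epor, Lck, Dazl and Hoxa7. The motif ATTGG, read as a CCAAT box, was in 2 of 10, Mylpf and Hoxc5, against 39.9% of the other windows. The USF E-box named above was in 2 of 10, against 10.8%, and that of Olfr317 lay in no footprint. The motif TATAAA, read as a TATA box, was in 1 of 10, Olfr1392, against 4.26%. The ETS motif CCGGAAGT was in 0 of 10, against 8.34% of the other windows, and the cAMP response element TGACGTCA in 0 of 10, against 3.96%. The consensus motifs of NRF1, YY1 and the CTCF core were also in 0 of 10, against 2.37% for NRF1, 1.66% for YY1 and 0.0764% for CTCF. A match is a string of letters, and its absence says nothing of the factor.

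The 10 genes belong to 7 lists of genes of other tissues, in which 31 of 1230 genes (2.52%) were open, against 59.2% of all protein-coding genes. The counts were 1 of 14 for liver (Apoh), 1 of 12 for skeletal muscle (Mylpf), 2 of 10 for the erythroid list (Epor among them), and 2 of 10 for the germline (Gdf9 and Dazl). In the T cell list 3 of 10 were open: Lck, the costimulatory receptor Cd28 with 0.333 and 0.469, and the regulatory T cell factor Foxp3 with 0.539 and 0.795. Foxp3 was the only listed gene whose peak changed sides, being nearer to its own start in replicate 1 and nearer to that of Ppp1r3f in replicate 2, and it held no footprint in either. Outside the olfactory receptors, the share open by list ran from 5.13% (Hox) to 30% (T cell). Olfactory receptors made up most of the 1230 genes and so of the pooled share, and 20 of 1135 were open (1.76%). After Olfr317 and Olfr1392, the highest means were those of Olfr1414 (0.730 ± 0.065), Olfr1260 (0.702 ± 0.290), Olfr685 (0.570 ± 0.026), Olfr536 (0.529 ± 0.028), Olfr1389 (0.504 ± 0.130), Olfr958 (0.446 ± 0.134), Olfr243 (0.437 ± 0.079) and Olfr287 (0.412 ± 0.025).

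Of the 31 open genes of these lists, 30 had their peak nearer to an own start in both libraries, against 84.9% of all open genes. The count nearer to another gene was 0, against 10.8%. A basic coding start lay within 500 bp of the peak in 25, a curated RefSeq start in 16 and the outer 5′ end in 16. The shares over all open genes were 92.2%, 90.2% (of those with a curated transcript) and 83.8%. Olfactory receptors made up 20 of the 25, 13 of the 16 and 10 of the 16. At the 500 bp limit, the genes just inside were Olfr344, whose peak edge lay 467 and 419 bp from a start, and Olfr1389, at 487 and 467 bp. Just outside were Olfr967, at 580 and 292 bp, and the muscle gene Actn3, at 592 and 612 bp.

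**Figure D5:**
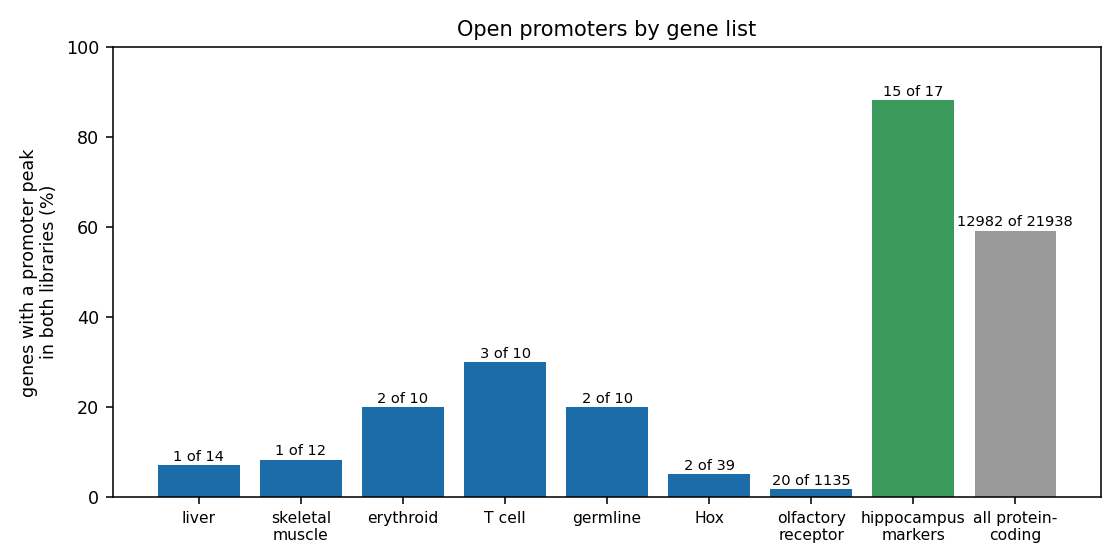
Share of genes with a promoter peak in both libraries (percent), for the 7 lists of genes of other tissues (blue), the hippocampus markers (green) and all protein-coding genes (grey), with counts above the bars. The lists of other tissues lie below the 59.2% of all protein-coding genes, and the hippocampus markers at 88.2%.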

How the data were processed

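DNase-seq was measured in 2 hippocampus libraries of 1 group. Per the deposited notes, peaks, footprints and base intervals were called per library from its own mm10 alignments; the aligner and the caller were not given in the sources used here. The authors deposited 2 peak lists per library, whose height is a signal in fixed steps (100% of values whole within 0.05 of a step), footprints whose lines all hold 0.01, a p-value type threshold, and intervals with a false discovery rate, also a p-value type unit, which list only rates below 0.05. The peaks of the 10 genes stood at 48 to 1746 steps, and precision is limited by n = 2.

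The larger peak list was joined to GENCODE M21 with pandas 2.3.3. A gene was open when a peak lay within 500 bp of any of its transcript starts in both libraries, and its main peak was the highest of these. Distances ran from the peak midpoint, all positions are 1-based, and a footprint belonged to a peak at an overlap of 1 bp. Curated starts were those of RefSeq transcripts on the same build. Sequences were read from the RefSeq copy of that build with pysam 0.24.0, and motifs and composition were counted in 300 bp windows. Near copies were sought with blastn 2.17.0. The counting was tested on simulated peaks. With 1 group there was no comparison between groups and no test. Alternatives were the stricter peak list, windows of 200 and 2000 bp, coding neighbours only, distance from the peak edge, the gene record's 5′ end alone, basic transcripts only, the peak nearest to a start, rescaled signal, whole footprints, a 200 bp motif window and each library left out. Added after seeing the data were curated RefSeq starts, basic coding starts and the neighbour's own peak.

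Named were the 10 genes, the gene with the start nearest to each, every open gene of the short lists, the 10 highest open olfactory receptors and 4 genes at the 500 bp limit; a gene that this rule takes is not reported here. The genes and lists were chosen with earlier results of these data known. The same-window criterion defined the 10 genes, so nothing is inferred from their being open.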

Additional observations from a re-analysis of the deposited data

How the results depend on the processing

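The side on which each of the 10 genes fell changed in 2 settings. With a 2000 bp window 1 gene was nearer to a neighbour: the main peak of Apoh became that of Prkca. The difference between the distances to the other and the own start was -574 bp, against 294 bp. The Prkca peak began 607 bp (replicate 1) and 507 bp (replicate 2) from the Apoh-202 start. A window slightly wider than 500 bp would thus reach it in replicate 2 only, and no window between 500 and 2000 bp was tried. Measured from the peak edge, Gdf9 was tied in replicate 2, whose peak covers both starts, and the genes nearer to a neighbour over the genome numbered 503. With the 5′ end alone, 5 genes had a peak and 5 were nearer to an own start (Epor, Lck, Hoxc5, Olfr317 and Olfr1392 dropped out), and with basic transcripts 5 and 5 (Gdf9, Epor, Lck, Hoxa7 and Apoh dropped out). An own start lay within 500 bp in 4 genes with curated RefSeq starts and in 5 with basic coding starts, both chosen after seeing the data. The stricter list lost Hoxc5, which put the median of the mean signals at 1.24 over 9 genes, against 1.13 over 10, and the 200 bp window lost Olfr317.

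Open genes of the off-tissue lists numbered 17 with the stricter list, 19 with 200 bp, 55 with 2000 bp and 17 with the 5′ end alone, and 36 to 55 with a library left out, the higher count without replicate 1. Open olfactory receptors numbered 9, 10, 35 and 10 in those settings and 25 to 43 with a library left out, again higher without replicate 1. List genes nearer to a neighbour numbered 3 with 2000 bp and 0 to 1 with a library left out. The cause of these moves was not tested beyond what each setting adds or drops by its construction. With a library left out, the 10 genes kept their side, and their median signal was 1.08 to 1.18. No paired analysis was possible because both libraries belong to 1 group and no test was made. The lowest peak, that of Hoxc5, stood at 48 and 66 steps, and 2 libraries of pooled tissue with a shared donor label do not give the spread between animals.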
